A study of Rattus norvegicus with 30 samples.

Results

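The miR-200 family of microRNAs (miRNAs) was followed in urinary exosomes, the small vesicles that cells of the kidney and urinary tract shed into urine. Its 5 members, rno-miR-200a-3p, rno-miR-200b-3p, rno-miR-200c-3p, rno-miR-141-3p and rno-miR-429, were taken by name and not by a cut on a measured value. Earlier results of these data were known when the family was chosen. The members are 5 of the 122 miRNAs listed on any of the 5 days studied and 5 of the 56 listed on every day. Male Sprague Dawley rats of the same stated age had either bilateral renal ischemia-reperfusion injury (IRI), in which the vessels of both kidneys were clamped and released, or a sham operation without clamping, and neither group is labelled with a gene change or a drug. Exosome small RNA was sequenced at days 1, 2, 3, 7 and 14 after surgery from 3 IRI rats (rats 1, 2 and 13) and 3 sham rats (rats 3, 6 and 9). The same 6 rats were sampled on each day, which gave 30 libraries, so that each group had 3 replicate rats on each day (n = 3). The comparison asks whether urine carries the family differently after the injury, in its early days and in its later ones.

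The family is a textbook marker of epithelial cells. Its members bind the mRNAs of ZEB1 and ZEB2, repressors of the adhesion gene E-cadherin, and ZEB1 and ZEB2 in turn repress the family, so that a high family level goes with the epithelial state. TGF-beta, the growth factor most tied to renal fibrosis, is known to lower the family in cultured epithelial cells during the epithelial-to-mesenchymal transition. The members come from a pair of genomic clusters and fall into a pair of seed groups, the seed being bases 2 to 8 of the mature miRNA, which choose its targets. The clusters and the seed groups cut across each other, so that cluster partners can have different seeds.

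The seeds of the miR-200c and miR-141 cluster partners are shown because they mark the 2 seed groups compared later, with the seed in capitals.
rno-miR-200c-3p: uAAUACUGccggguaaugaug
rno-miR-141-3p: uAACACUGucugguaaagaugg
Both sequences are from RefSeq (build GRCr8), which matched 2 of the 5 members by mature name, and both lie on the minus strand of chromosome 4, at chr4:159209969-159209989 and chr4:159209540-159209561. They differ at 4 of the 21 positions compared, and at 1 of the 7 seed positions. Each seed stands in 1 of the 724 mature rat entries of that table (0.138%), which lacks the other members, so this share is a lower bound. As background, miR-200b-3p and miR-429 share the seed of miR-200c-3p, and miR-200a-3p that of miR-141-3p. The hairpins of the miR-200c and miR-141 cluster span 509 bases (chr4:159209525-159210033) between the genes Phb2 and Ptpn6. Those of the miR-200a, miR-200b and miR-429 cluster span 1908 bases (chr5:171929682-171931589, minus strand) and overlap Ttll10. The short motif GGAG, known from exosome miRNAs of T cells, was searched on the mature strand and was in neither sequence, as against 7.73% of the 724 entries. Nor were its close forms GGAC (5.11% of entries), GGGC (8.29%) or GGGG (6.08%), and at least 1 of the 4 was in 21.3% of entries.

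The authors' values appear to be read counts scaled by library, by a method not given in the sources used here, and are called scaled values. Column totals ran from 742597 to 1906282, the highest in IRI rat 13 at day 3. The other totals of that day were 853391 and 804378 in IRI rats and 838549 to 919977 in sham rats. Scaled values and ratios of means at day 3 carry that higher total, while shares of the listed total do not. In every library the low values were whole multiples of 1 step, the worth of 1 read, which ran from 22.7 to 3992 scaled units. The listed miRNAs then held 11165 to 50705 reads in IRI libraries and 935 to 2125 in sham libraries at day 1, and 431 to 837 in IRI libraries and 211 to 981 in sham libraries at day 7. A value of 0 allows up to the worth of 3 reads. Reads were counted from these steps, so intervals below cover counting error only. Markers of kidney tubule were present in every library, at 4.74% to 15.7% of the listed total in IRI and 5.78% to 13.0% in sham libraries, with 8 to 11 of 11 listed. Of 10 blood cell miRNAs 2 to 5 were listed, at 1.77% to 5.44% in IRI and 1.2% to 3.32% in sham libraries, and miR-451-5p, miR-144-3p and miR-223-3p were in no table. The files hold no marker of exosomes as such, and less exosome material of an epithelial type cannot be told apart from less of the miRNA in each exosome.

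The family was measured in all 30 libraries, at 1.38% to 16.5% of the listed miRNA total (median 3.1%, 6 to 4353 reads). Over the 30 libraries the order of median scaled values was miR-200a-3p (15377), miR-200b-3p (5982), miR-429 (3783), miR-141-3p (3600) and miR-200c-3p (2543). miR-200a-3p was the highest member, or level with it, in 29 of 30 libraries and took 16.7% to 80.8% of the family total (median 42.5%). The tie was with miR-200b-3p in sham rat 6 at day 2 (8681 scaled units each). Its median rank among listed miRNAs was 12, against 26 for miR-200b-3p and 40 for miR-200c-3p. miR-200b-3p was above miR-429 in 26 libraries and below it in 3. The 3 lowest members did not part: miR-141-3p was above miR-429 in 14 libraries and below it in 12, and above miR-200c-3p in 14 and below it in 11. All 5 members were above 0 in 21 libraries, and miR-200a-3p was never at 0. Scaled values of different miRNAs also carry the capture efficiency of each sequence, which was not measured.

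**Figure D1:**
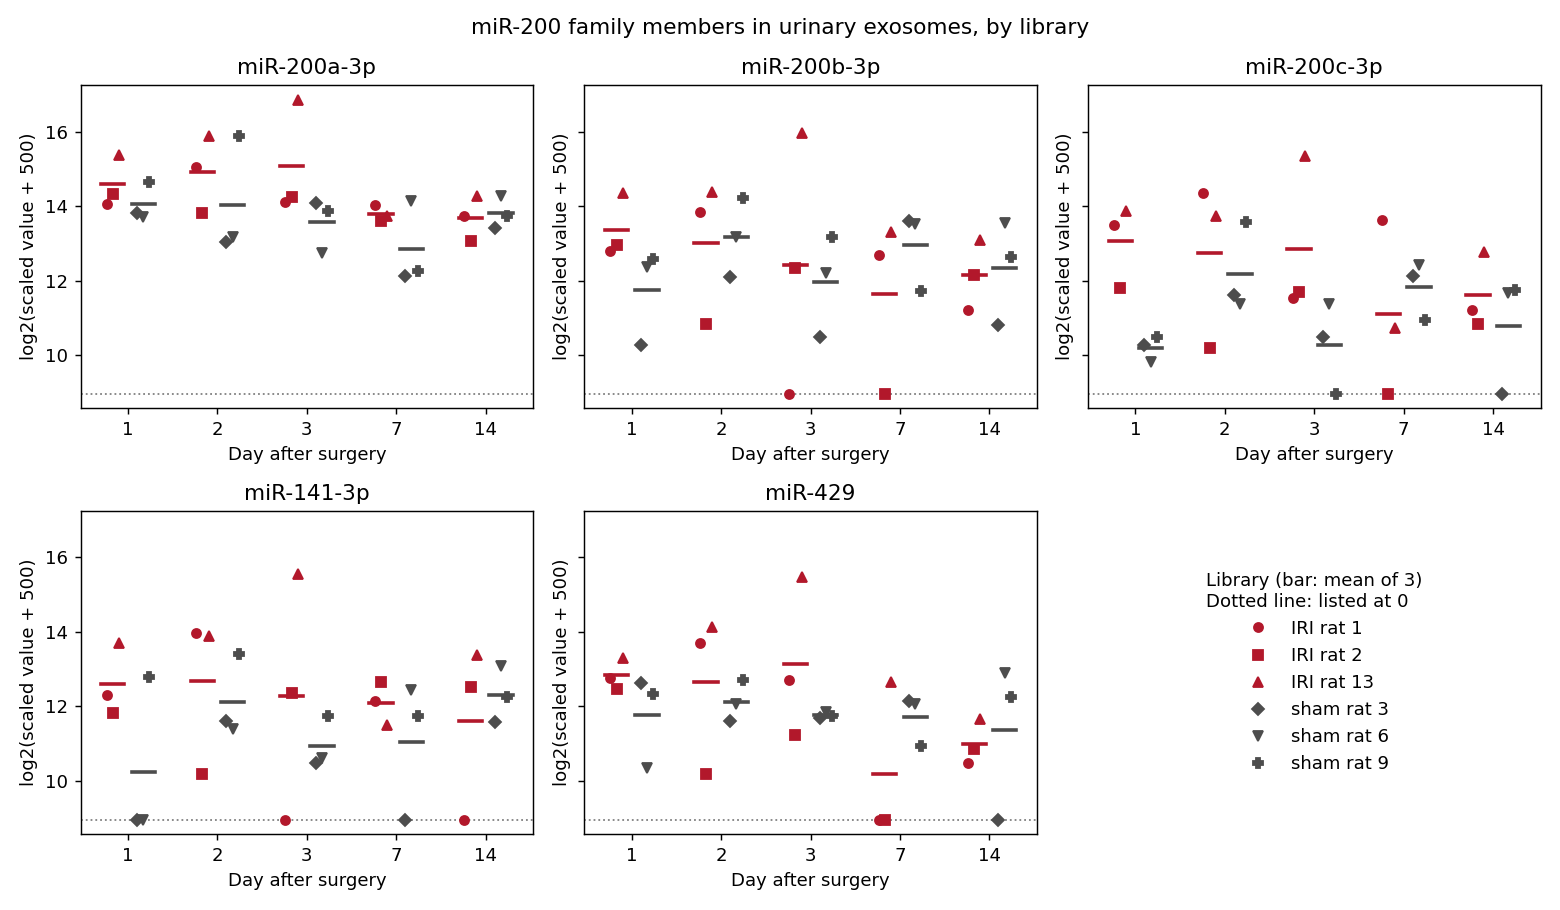
Scaled values of the 5 members (vertical axis, log2 of the scaled value plus 500) by day after surgery, with 1 point per library, IRI in red left of sham in grey, and a bar at the mean of 3. IRI rat 13 stands above every other library at day 3 for all 5 members, and miR-200c-3p at day 1 has 3 IRI points from 3062 to 14558 above 3 sham points from 402 to 936.

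At day 1 all 5 members had a higher mean in IRI than in sham, and none passed the test over all miRNAs. The ratio of means was largest for miR-200c-3p (13.9), with 3.11 for its cluster partner miR-141-3p and 3.08 for miR-200b-3p of the other cluster. miR-200c-3p had 11129, 3062 and 14558 scaled units in IRI rats 1, 2 and 13, against 729, 402 and 936 in sham rats 3, 6 and 9. Its partner miR-141-3p had 4526, 3139 and 12718 in IRI rats, against 0, 0 and 6555 in sham rats. For miR-200c-3p the groups did not overlap, while for miR-141-3p sham rat 9 lay above IRI rats 1 and 2. miR-200b-3p, the miR-200c seed partner in the other cluster, had 6603, 7502 and 20304 in IRI rats, against 729, 4824 and 5619 in sham rats. miR-429 had 6395, 5205 and 9561 in IRI rats, against 5835, 804 and 4682 in sham rats. The groups did not overlap for miR-200b-3p and overlapped for miR-429, where sham rat 3 was above IRI rat 2. The most abundant member, miR-200a-3p, had 16610, 20209 and 41766 in IRI rats, against 13857, 12865 and 25285 in sham rats, again with sham rat 9 above IRI rats 1 and 2.

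With limma, Benjamini-Hochberg adjustment and a threshold of 0.05, 0 of the 5 members and 1 of the 110 miRNAs tested (0.909%) passed at day 1. miR-200c-3p came closest, with a log2 fold change of 2.87 (SE 0.60, adjusted p = 0.0695 from limma). The other log2 fold changes were 2.37 for miR-141-3p (SE 1.1, adjusted p = 0.370 from limma), 1.63 for miR-200b-3p (SE 0.75), 1.07 for miR-429 (SE 0.66) and 0.53 for miR-200a-3p (SE 0.48). The median over all 110 miRNAs was 0.30, and 78 of the 110 had a positive log2 fold change. At an unadjusted p under 0.05, 1 of 5 members passed, against 11.8% of all miRNAs. Groups in which every IRI library lay above every sham library were seen for 2 of 5 members and for 16.4% of all miRNAs. The miR-200c-3p ratio of means, 13.9, rests on 1 read in each sham library, and the counting error of those 3 reads alone allows 4.76 to 67.4. Its adjusted p from limma ranged from 0.00937 (without IRI rat 2, log2 fold change 3.50) to 0.209 (without IRI rat 1) over the 12 alternatives tried. With all rats kept it ranged from 0.0151 (recentred on the median) to 0.126 (constant of 2000). The call thus depends on single rats and on the processing.

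**Figure D2:**
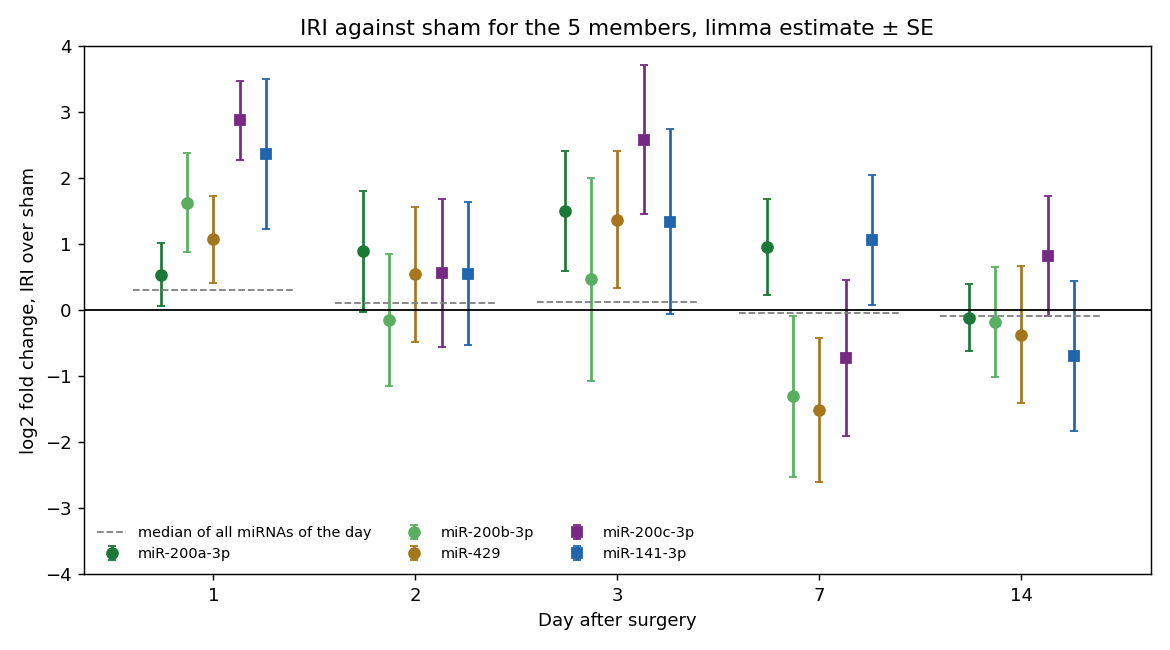
Log2 fold change of IRI over sham for each member by day (limma estimate, bar: SE, n = 3 per group), with circles for the miR-200a, miR-200b and miR-429 cluster, squares for the miR-200c and miR-141 cluster, and a dashed line at the median of all miRNAs of the day. All 5 members lie above the dashed line at days 1 and 3, and 2 of 5 lie above 0 at day 7.

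At day 2 the groups overlapped for all 5 members, with IRI rat 2 low and sham rat 9 high. IRI rats 1 and 13 carried the family at 10.4% and 11.3% of the listed total and IRI rat 2 at 2.32%, against 2.16%, 2.74% and 7.93% in sham rats 3, 6 and 9. miR-200a-3p had 33329, 13899 and 60125 scaled units in IRI rats, against 7847, 8681 and 59686 in sham rats. miR-200c-3p had 20381, 662 and 13057 in IRI rats, against 2616, 2170 and 11663 in sham rats. In IRI rat 2 miR-200c-3p, miR-141-3p and miR-429 were each at 1 read (662), the lowest library of the day for all 3. The values of miR-141-3p were 15585, 662 and 14636 in IRI rats, against 2616, 2170 and 10291 in sham rats. Those of miR-429 were 12708, 662 and 17374 in IRI rats, against 2616, 3798 and 6174 in sham rats. miR-200b-3p had 14147, 1324 and 20744 in IRI rats, against 3924, 8681 and 18523 in sham rats, and IRI rat 2 was again the lowest.

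None of the 5 members passed at day 2 with limma, and none had an unadjusted p under 0.05, against 1.16% and 10.5% of the 86 miRNAs tested. Log2 fold changes ran from -0.15 for miR-200b-3p to 0.89 for miR-200a-3p (median of members 0.55, of all miRNAs 0.11; adjusted p from limma 0.785 to 0.940). For 0 of 5 members did every IRI library lie above every sham library, against 1.16% of all miRNAs. Without IRI rat 2 the log2 fold change of miR-200b-3p was 0.94, and without IRI rat 1 that of miR-200c-3p was -0.23.

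At day 3 a single library, IRI rat 13, held the family far above the rest. The family made up 16.5% of its listed total (95% exact binomial interval 15.9% to 17.2%, 2103 of 12739 reads), 3.04% and 4.10% in IRI rats 1 and 2, and 2.64%, 1.86% and 3.46% in sham rats 3, 6 and 9. The other libraries of that day were far less deep, with 691 and 853 listed reads in IRI rats 1 and 2 and 289 to 909 in sham rats. miR-200a-3p had 17290, 18860 and 118217 scaled units in IRI rats, against 16975, 6404 and 14508 in sham rats. miR-200b-3p had 0, 4715 and 63298 in IRI rats, against 943, 4269 and 8705 in sham rats. miR-429 had 6175, 1886 and 45042 in IRI rats, against 2829, 3202 and 2902 in sham rats. Of this cluster only miR-200a-3p had every IRI library above every sham library, and IRI rat 1 was above sham rat 3 by less than the worth of 1 read in either. miR-200c-3p had 2470, 2829 and 40852 in IRI rats, against 943, 2135 and 0 in sham rats. miR-141-3p had 0, 4715 and 47287 in IRI rats, against 943, 1067 and 2902 in sham rats. The groups of miR-200c-3p did not overlap, yet the 0 of sham rat 9 allows up to 8705 units, above the values of IRI rats 1 and 2.

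The members' log2 fold changes at day 3 were 2.58 for miR-200c-3p (SE 1.12, adjusted p = 0.665 from limma), 1.50 for miR-200a-3p (SE 0.91), 1.37 for miR-429 (SE 1.03), 1.34 for miR-141-3p (SE 1.40) and 0.46 for miR-200b-3p (SE 1.53), beside a median of 0.13 over all miRNAs. No member passed, against 1.39% of the 72 miRNAs tested, and 1 of 5 had an unadjusted p under 0.05, against 6.94%. Every IRI library lay above every sham library for 2 of 5 members and for 6.94% of all miRNAs. Without IRI rat 13 the ratio of means was 1.43 in place of 4.07 for miR-200a-3p and 0.508 in place of 4.89 for miR-200b-3p. It was 1.35 in place of 5.94 for miR-429, 2.58 in place of 15.0 for miR-200c-3p and 1.44 in place of 10.6 for miR-141-3p. The log2 fold changes of miR-200b-3p and miR-141-3p were then -1.30 and -0.29. The sham groups of miR-200c-3p and miR-141-3p held 3 reads each, whose counting error alone allows ratios of 5.13 to 72.7 and of 3.62 to 51.3 with all rats.

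**Figure D3:**
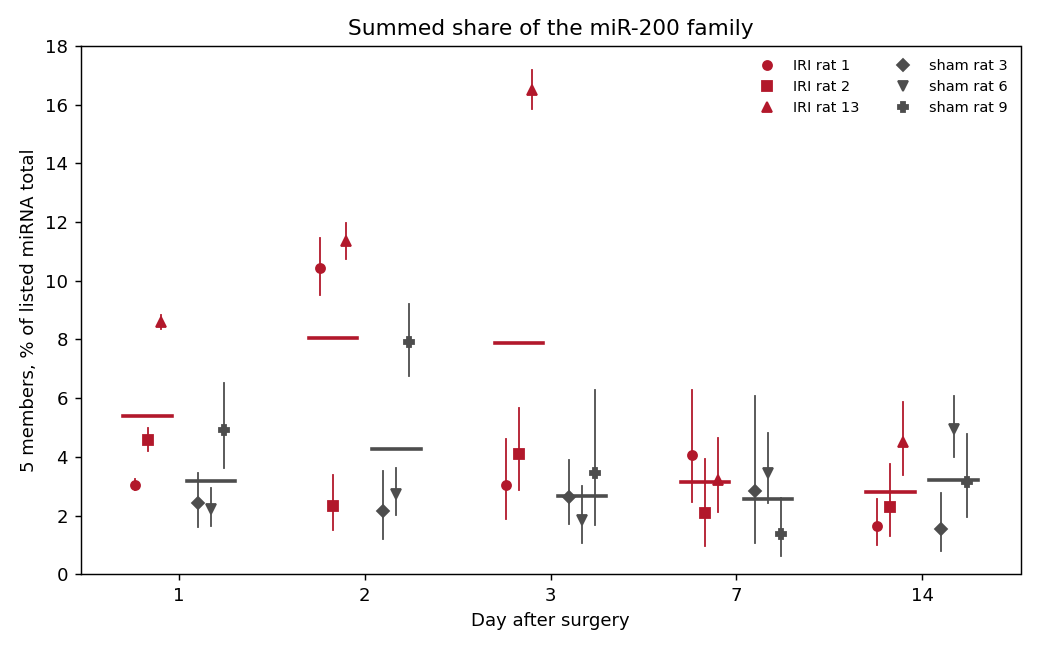
Sum of the 5 members as a percent of the listed miRNA total (vertical axis) by day, with 1 point per library, its 95% exact binomial interval for counting error, IRI in red left of sham in grey, and a bar at the mean of 3. IRI rat 13 is the highest IRI library on 4 of 5 days, at 16.5% at day 3, while at days 7 and 14 no library passes 4.96%.

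At days 7 and 14 the family's share overlapped between the groups and its reads were few. At day 7 it made up 2.09% to 4.08% of the listed total in IRI and 1.38% to 3.47% in sham libraries, and at day 14 1.64% to 4.50% in IRI and 1.55% to 4.96% in sham libraries. The mean share in sham rats was 2.56% at day 7 and 3.22% at day 14, beside 3.18%, 4.27% and 2.65% at days 1, 2 and 3. miR-200c-3p had 12184, 0 and 1199 scaled units at day 7 in IRI rats, against 3992, 5024 and 1455 in sham rats, from 7 IRI and 6 sham reads. At day 14 it had 1868, 1343 and 6446 in IRI rats, against 0, 2736 and 2936 in sham rats. miR-200a-3p was at 16246, 11914 and 13190 at day 7 in IRI rats, against 3992, 17585 and 4365 in sham rats. None of these groups parted. miR-200a-3p spread more among sham rats than among IRI rats at day 7, but from few reads. These were 1, 14 and 3 in sham rats 3, 6 and 9 and 8, 6 and 11 in IRI rats 1, 2 and 13. miR-429 was at 0, 0 and 5996 in IRI rats at day 7, against 3992, 3768 and 1455 in sham rats, with 5 reads in each group. At day 14 it had 934, 1343 and 2762 in IRI rats, against 0, 7113 and 4403 in sham rats.

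By limma 0 of 5 members passed at day 7 and 0 at day 14, against 2.94% of 68 and 0% of 79 miRNAs, and 0 of 5 had an unadjusted p under 0.05 on either day, against 5.88% and 11.4%. The day 7 log2 fold changes were -1.51 for miR-429, -1.31 for miR-200b-3p, -0.72 for miR-200c-3p, 0.95 for miR-200a-3p and 1.06 for miR-141-3p (adjusted p from limma 0.781 to 0.885). At day 14 they ran from -0.69 for miR-141-3p to 0.82 for miR-200c-3p (adjusted p from limma 0.700 to 0.907). The members' medians were -0.72 and -0.18, beside medians over all miRNAs of -0.05 and -0.09. No member had every IRI library above every sham library on either day, against 10.3% and 11.4% of all miRNAs, and none had every IRI library below. The 4 members other than miR-200a-3p each had 5 to 15 reads over the 3 IRI libraries and 5 to 26 over the 3 sham libraries of a day, and differences within the counting error of such numbers were not detectable at this depth.

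Averaged over the 5 libraries of each rat, all 5 members had a positive difference between IRI and sham rats and none passed. A positive difference was seen for 32 of the 56 miRNAs listed on every day. The difference in mean log2 value was 1.22 for miR-200c-3p (SE 0.62, adjusted p = 0.311 from limma), 0.92 for miR-141-3p, 0.75 for miR-200a-3p, 0.22 for miR-429 and 0.09 for miR-200b-3p. Of the 56 miRNAs listed on every day 3.57% passed, among them none of the 5, and 16.1% had an unadjusted p under 0.05, also none of the 5. Without IRI rat 2 the difference of miR-200c-3p was 2.01 (adjusted p = 0.0387 from limma), and its adjusted p ranged from 0.0387 to 0.643 over 12 alternatives. Without IRI rat 13 miR-200b-3p and miR-429 turned to -0.76 and -0.52.

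The early and late days were then compared directly, as the IRI minus sham difference at days 1 to 3 less that at days 7 and 14. It was positive for all 5 members, 1.96 for miR-200c-3p (SE 1.07), 1.93 for miR-429 (SE 1.02), 1.39 for miR-200b-3p, 1.24 for miR-141-3p and 0.56 for miR-200a-3p on the log2 scale, beside a median of 0.00 over all 56 miRNAs. None passed (adjusted p from limma 0.366 to 0.621), against 5.36% of all miRNAs, and none had an unadjusted p under 0.05, against 14.3%. For day 3 against days 7 and 14 the differences were 2.54 for miR-200c-3p (SE 1.44), 2.31 for miR-429 (SE 1.37), 1.21 for miR-200b-3p, 1.16 for miR-141-3p and 1.08 for miR-200a-3p, beside a median of 0.26. Here too none passed (adjusted p from limma 0.494 to 0.807; 3.57% of all miRNAs), with none at an unadjusted p under 0.05 (12.5% of all miRNAs). Day 3 was taken for this contrast because the family had been described on that day in these same samples, so it is not independent evidence. The fits of these day contrasts took the libraries of a rat as independent of each other, so their SEs and p-values leave out the pairing by rat. In a fit with the rat as a block, given at the end, no member passed either. Taken rat by rat, the change of miR-200c-3p between days 1 to 3 and the later days was 0.71, 1.32 and 2.57 in IRI rats 1, 2 and 13 on the log2 scale, against 0.24, -1.19 and -0.33 in sham rats 3, 6 and 9. The groups did not overlap for this member alone of the 5, against 10.7% of the 56 miRNAs. For day 3 they did not overlap for miR-429 alone, with 2.98, 1.31 and 3.31 in IRI rats, against 1.15, -0.62 and 0.14 in sham rats, beside 8.93% of all miRNAs.

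The balance of the clusters was measured as a ratio of sums and as a difference of mean log2 values, which did not part the groups alike at day 1. The miR-200c and miR-141 cluster made up 34.6%, 15.9% and 27.6% of the family in IRI rats 1, 2 and 13, against 3.45%, 2.13% and 17.4% in sham rats 3, 6 and 9. The log2 ratio of the miR-200c and miR-141 sum over the miR-200a, miR-200b and miR-429 sum was -1.53 ± 0.72 in IRI and -3.55 ± 1.2 in sham rats (SD, n = 3), a difference of 2.02 that kept its sign over the 7 alternatives (1.54 to 2.71). Sham rat 9 lay above IRI rat 2, so the groups overlapped, and in sham rats 3 and 6 the cluster was 1 read each. As a difference of mean log2 values the groups did not overlap, at -1.45 to -0.30 in IRI and -2.75 to -1.55 in sham rats. At days 2, 3, 7 and 14 the differences were -0.08, 0.67, 0.18 and 0.25, with overlapping groups, and each of these but day 3 changed sign under some alternative. No test was run on these ratios.

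For the seed groups at day 1 the IRI and sham ranges did not overlap as a ratio of sums, but overlapped as a difference of mean log2 values. Members with the miR-200c seed, printed above, made up 53.3%, 40.3% and 44.9% of the family in IRI rats 1, 2 and 13, against 34.5%, 31.9% and 26.1% in sham rats 3, 6 and 9. The log2 ratio of the miR-200b, miR-200c and miR-429 sum over the miR-200a and miR-141 sum was -0.22 ± 0.37 in IRI and -1.13 ± 0.30 in sham rats (SD, n = 3), a difference of 0.91. As a difference of mean log2 values in place of a ratio of sums it was 0.41, with -0.69 to -0.16 in IRI and -1.92 to -0.34 in sham rats. At days 2, 3, 7 and 14 the groups overlapped, with differences of -0.72, -0.11, -2.32 and 0.19. The day 7 value rests on opposite extremes in IRI rat 2 (log2 ratio -5.20) and sham rat 3 (2.19), where family reads were few. In IRI rat 2 all 3 members of the miR-200c seed group were at 0 and 9 family reads were found. In sham rat 3 that seed group made up 83.3% of the family, from 6 family reads.

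**Figure D4:**
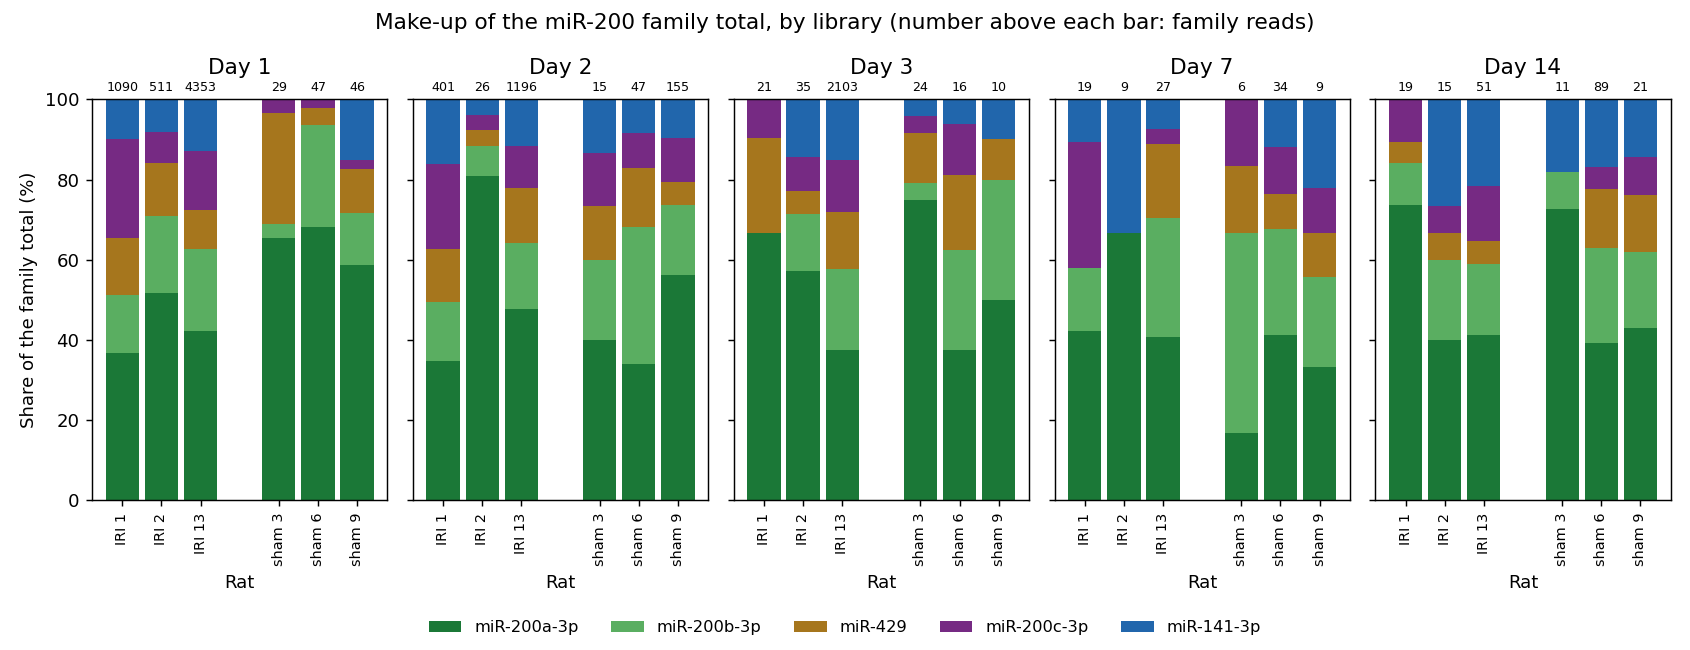
Make-up of the family total (vertical axis, percent of the 5 members' sum) in each library, IRI rats left of sham rats in each day's panel, with the family's reads above each bar. miR-200a-3p is the largest part in all bars but those of sham rat 3 at day 7 (6 reads) and sham rat 6 at day 2, where it equals miR-200b-3p. At day 1 the miR-200c and miR-141 parts are 15.9% to 34.6% in IRI and 2.13% to 17.4% in sham rats.

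**Figure D5:**
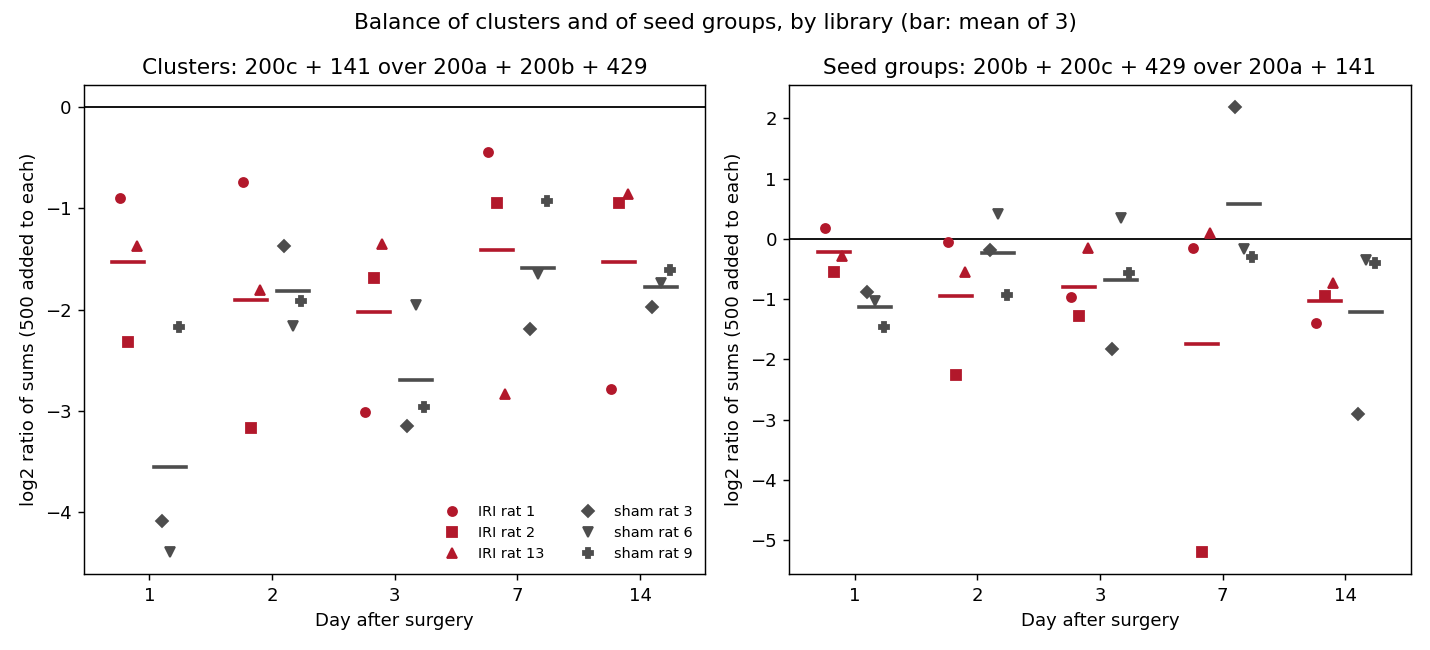
Log2 ratio of the miR-200c and miR-141 sum over the miR-200a, miR-200b and miR-429 sum (left) and of the miR-200b, miR-200c and miR-429 sum over the miR-200a and miR-141 sum (right), by day, with 1 point per library, IRI in red left of sham in grey, and a bar at the mean of 3. At day 1 the means are -1.53 in IRI and -3.55 in sham for the clusters, and -0.22 and -1.13 for the seed groups.

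Members that shared a cluster were about as far apart in profile as members that did not. Profiles were compared as the root mean square difference of log2 values centred on each day's mean, over 30 libraries, with a smaller value for closer profiles. Pairs from the same cluster had a median of 1.23 (4 pairs) and pairs from different clusters 1.21 (6 pairs). Pairs with the same seed had 1.19 (4 pairs) and pairs with different seeds 1.32 (6 pairs), beside 1.37 over all 1540 pairs of miRNAs. The closest pair was miR-200a-3p and miR-429, which share a cluster (1.15), and the farthest was miR-141-3p and miR-429, which share neither (1.55). Against these, the cluster partners miR-200c-3p and miR-141-3p were far apart (1.47), and miR-200a-3p and miR-141-3p of different clusters were closer (1.17). Low counts add to every such distance, and the libraries are shared by all pairs, so these are descriptions.

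Of the other hairpin arms only miR-141-5p and miR-200b-5p were listed, shown here with their seeds in capitals because they come from the same hairpins as 2 members.
rno-miR-141-5p: uCCAUCUUccagugcaguguug
rno-miR-200b-5p: cAUCUUACugggcagcauugga
They are from RefSeq (GRCr8), at chr4:159209584-159209605 and chr5:171931548-171931569 on the minus strand, and have neither seed of the members. miR-200b-5p was listed at day 1 only, at 498, 77 and 704 scaled units in IRI rats, against 0, 402 and 0 in sham rats. miR-141-5p was listed at days 1, 2 and 7, with 664, 0 and 1067 in IRI rats at day 1, against 1459, 0 and 0 in sham rats. Both were under their -3p partners in every IRI library of day 1, but miR-141-5p was above miR-141-3p in sham rat 3 at day 1 (1459 against 0) and in IRI rat 2 at day 2 (1324 against 662). Neither passed the test on any day (adjusted p = 0.713 for miR-200b-5p and 0.891 for miR-141-5p at day 1, from limma).

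The miRNAs outside the family with the closest profiles were let-7c-5p (0.88), miR-21-5p (0.92), miR-148a-3p (1.02), miR-16-5p (1.03) and let-7b-5p (1.05), measured against the mean of the 5 members over 30 libraries. Without IRI rat 13 at day 3 miR-26a-5p (0.96) stood among the closest 5 in place of miR-148a-3p (1.03). The members themselves lay at 0.71 to 0.95, although each is part of that mean. A miRNA that varies little also scores low here, as let-7b-5p does, so closeness is not co-variation. miR-21-5p, a miRNA known to be raised in injured and fibrotic kidney, had 53106, 49036 and 167748 scaled units in IRI rats at day 3, against 11317, 20278 and 26114 in sham rats. let-7c-5p had 101271, 108445 and 501149 in IRI rats at day 3, against 103737, 114196 and 156682 in sham rats. For both, IRI rat 13 was the highest library of that day, as it was for all 5 members. At day 3 miR-21-5p had a log2 fold change of 2.03 (adjusted p = 0.647 from limma).

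The 10 other miRNAs listed for TGF-beta signalling and epithelial state showed 1 call in the daily comparisons, miR-9a-5p at day 3, where it was 1 of 7 listed and 1.39% of all miRNAs passed. miR-9a-5p, known to target E-cadherin mRNA in human cells, averaged 5807 ± 2582 scaled units in IRI rats at day 3 and was listed at 0 in all 3 sham rats (SD, n = 3; adjusted p = 0.0392 from limma). The 0 of sham rat 9 allows up to 8705 units, above that IRI mean, and those of sham rats 3 and 6 up to 2829 and 3202. Under 4 of the 6 processing alternatives with all rats kept, 0 miRNAs passed at day 3. At days 1, 2, 7 and 14, 0 of the 10, 9, 8 and 9 members listed passed, beside 0.909%, 1.16%, 2.94% and 0% of all miRNAs. Their median log2 fold change was 0.81 at day 1 (10 listed, 9 positive, all miRNAs 0.30) and 1.29 at day 3 (7 listed, 4 positive, all miRNAs 0.13). Of all miRNAs, 78 of 110 were positive at day 1 and 39 of 72 at day 3. miR-34a-5p, known in human cells as a p53 target that represses the mesenchymal factor SNAI1, averaged 3062 ± 2541 in IRI rats at day 7 and was at 0 in sham rats (adjusted p = 0.138 from limma). A 0 at day 7 allows up to 11977, 3768 and 4365 units in sham rats 3, 6 and 9, each above that IRI mean.

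Blood cell and tubule miRNAs were set beside the family. Day 1 was where miR-200c-3p had its largest log2 fold change. On that day the summed blood cell miRNAs stood at 3.35% to 5.44% in IRI and 1.58% to 2.03% in sham libraries, 5 of 10 listed. The tubule list stood at 6.60% to 15.7% in IRI and 10.3% to 11.1% in sham libraries, 11 of 11 listed. The blood sum was carried by miR-16-5p, which averaged 48053 ± 25681 scaled units in IRI and 10575 ± 2293 in sham rats (SD, n = 3). The other blood miRNAs had log2 fold changes of -1.08 (miR-486), -0.35 (miR-142-3p), -0.04 (miR-92a-3p) and 0.03 (miR-25-3p), and the median of the 5 was -0.04, beside 0.30 over all miRNAs. None of the 5 passed. At day 3 IRI rat 13, the library with the most family, held the least of the tubule list (4.74%, against 14.3% and 12.7% in the other IRI rats and 11.1% to 13.0% in sham rats), and its blood cell miRNAs stood at 3.27%, within the range of the other libraries. The part of these in the family's values was not tested.

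Sequencing lane went largely with the group, since IRI rats 1 and 2 were run in lane 2 except at day 14 for rat 2, and the lane cannot be told apart from the surgery. IRI rat 13 was run in lane 5 at days 3, 7 and 14, and that lane held no other rat. Its high family share at day 3 therefore cannot be told apart from its lane. A lane held both groups on the same day in 3 cases, with 1 library each. In lane 4 IRI rat 13 and sham rat 9 carried the family at 8.59% and 4.92% at day 1, and at 11.3% and 7.93% at day 2. miR-200c-3p was 14558 in IRI rat 13 and 936 in sham rat 9 at day 1, but 13057 in IRI rat 13 and 11663 in sham rat 9 at day 2. In lane 3 at day 14 IRI rat 2 and sham rat 3 carried 2.3% and 1.55%. IRI rat 13 and sham rat 9 had the highest family share of their groups on each of days 1, 2 and 3, so the highest libraries of both groups shared a lane on days 1 and 2.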

How the data were processed

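Exosome small RNA of 3 IRI and 3 sham rats was sequenced at 5 days. The authors trimmed adaptors with Cutadapt, aligned with Bowtie and the miRDeep2 mapper in CAP-miRseq, and counted with HTSeq; versions, the use of molecular identifiers and the scaling are not given in the sources used here. The deposited values are a signal, apparently counts that the authors scaled by library and rounded. The authors' edgeR columns (fold changes, p-values and related statistics) were not used. Reads were inferred from the spacing of low values, since every value of up to 20 reads was a whole multiple of 1 library step within 0.1.

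Values were taken as log2(value + 500) and compared with limma 3.58.1 (R 4.3.3; lmFit, eBayes, two-sided), and p-values were adjusted by Benjamini-Hochberg over all miRNAs of a day's table, or over the 56 listed on every day, and a threshold of 0.05. With 3 rats against 3 an exact permutation test cannot go below 0.1. Tables of different days were scaled apart, so IRI and sham were compared within a day first. Fits were tested on simulated data. Descriptions used Python 3.11.15, NumPy 2.4.6, SciPy 1.17.1, pandas 2.3.3 and Matplotlib 3.10.9.

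Alternatives were constants of 50, 2000 and 1 read, miRNAs above 0 in at least 5 libraries of a day, equal library totals, recentring on the median, and leaving out each rat. Labels give the same rats on every day, so day contrasts were also fitted with the rat as a paired block. Between days, deviations from the group mean had a median correlation of 0.11 in libraries of the same rat and -0.06 in different rats of a group (56 miRNAs).

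The members and lists were chosen with earlier results of these data known. Named miRNAs are the members, their other arms, the 5 closest profiles, and list members that passed the test or were among the 4 with the smallest p.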

Additional observations from a re-analysis of the deposited data

How the results depend on the processing

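The 5 members gave 40 log2 differences and 482 alternative values, of which 447 kept their direction and side of the threshold, 6 passed it and 29 changed sign. All 6 that passed were miR-200c-3p: at day 1 with a constant of 50 (adjusted p = 0.0436), the filter on zeros (0.0381), equal totals (0.0416), recentring (0.0151) or without IRI rat 2 (0.00937), and over 5 days without IRI rat 2 (0.0387), all from limma. With all rats kept, sign changed for miR-200b-3p at day 2 with equal totals (0.014), at day 3 with a constant of 50 (-0.44) and over 5 days with that constant (-0.27) or equal totals (-0.023), and for miR-429 at day 14 with that constant (0.42).

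Leaving out 1 rat, log2 differences that changed sign ranged at day 2 from -0.83 to 0.94 (miR-200b-3p), -0.23 to 1.85 (miR-200c-3p), -0.095 to 1.80 (miR-141-3p) and -0.19 to 1.78 (miR-429), and at day 3 from -1.30 to 2.19 (miR-200b-3p) and -0.29 to 3.00 (miR-141-3p). At day 7 they ranged from -2.13 to 0.037 (miR-200b-3p) and -1.98 to 0.35 (miR-200c-3p), and at day 14 from -0.41 to 0.20 (miR-200a-3p), -0.94 to 0.43 (miR-200b-3p), -0.10 to 1.29 (miR-200c-3p), -1.57 to 0.63 (miR-141-3p) and -1.58 to 0.39 (miR-429). Over 5 days they ranged from -0.76 to 0.63 (miR-200b-3p) and -0.52 to 0.83 (miR-429), for days 1 to 3 against 7 and 14 from -0.22 to 1.18 (miR-200a-3p), and for day 3 against 7 and 14 from -0.18 to 2.17 (miR-141-3p).

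Counts of miRNAs passing over the whole table were small and moved. At day 1 it was 1, and 9 with a constant of 50, 3 with 1 read, 4 with equal totals, 3 recentred and 1 to 3 without a rat. At day 2 it was 1, and 2 with a constant of 2000, 0 with 1 read or the filter and 0 to 1 without a rat. At day 3 it was 1, and 0 with 2000, 1 read, the filter or recentring and 0 to 1 without a rat. At day 7 it was 2, and 1 with 2000, 0 with 1 read or the filter and 0 to 2 without a rat. At day 14 it was 0, and 3 with 50, 2 with 2000 and 0 to 1 without a rat. Over 5 days it was 2, and 1 with 50, 2000 or the filter, 0 with equal totals or recentring and 0 to 2 without a rat. For days 1 to 3 against 7 and 14 it was 3, and 1 with 1 read, 0 with the filter and 2 to 3 without a rat. For day 3 against 7 and 14 it was 2, and 1 with 50, 0 with 1 read or the filter and 0 to 2 without a rat. The cause of these moves was not tested.

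With the rat as a replicate block (paired fit) the 2 day contrasts kept 3 and 2 miRNAs passing and no member call changed. The adjusted p of miR-200c-3p was then 0.214 for days 1 to 3 and 0.291 for day 3, from limma. The filter left miR-141-3p out at day 1 and miR-429 out at day 7, and outside the family it left miR-9a-5p out at day 3. Library depth limits the members below miR-200a-3p most.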
